A study of Mus musculus with 12 samples.

Results

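The corticosteroid receptors and 6 genes of their pathway were followed by photo-isolation chemistry (PIC) in the hippocampus of male ICR mice aged 8 weeks. PIC reverse-transcribes RNA on the section with a primer that light uncages, so that cDNA of the irradiated region alone enters a CEL-seq2 library of 3′ ends counted by unique molecular identifier (UMI). The 8 genes were taken by symbol from a table of 32546 genes, and all 8 were present, namely the receptors Nr3c1 and Nr3c2, the enzyme gene Hsd11b1, and Fkbp5, Sgk1, Tsc22d3, Per1 and Ddit4. CA1, CA3 or dentate gyrus (DG) was irradiated with 4 replicates each in 4 histological conditions.

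Fresh-frozen sections were permeabilized either with 0.1 N HCl for 5 min (fresh-frozen HCl) or with TE at 70°C for 1 h (fresh-frozen TE). Tissue fixed in 4% PFA was cut as frozen sections (fixed frozen TE) or embedded in paraffin (paraffin TE), and both were permeabilized with TE at 70°C for 1 h. All mice were of the same strain, sex and age. The labels give none a hormone, a stressor or an altered gene, so the levels below are those of animals with no labelled treatment. Each library pooled the 4 barcoded replicates of 1 region in 1 condition, so within a condition the library and the region cannot be told apart. Within a region the library and the condition cannot be told apart either. The series text names CA2 where the sample titles and the study's methods name CA3, and CA3 is used here.

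Corticosterone, the main glucocorticoid of rodents, acts in the hippocampus on a pair of related nuclear receptors. Nr3c2 encodes the mineralocorticoid receptor, which binds corticosterone with high affinity, and Nr3c1 encodes the glucocorticoid receptor, which binds it with lower affinity and is engaged more when the hormone peaks. Without hormone the receptors are held by HSP90 chaperones and FKBP cochaperones. With hormone they enter the nucleus and bind response elements near genes such as Fkbp5, Sgk1, Tsc22d3, Per1 and Ddit4.

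The replicates held 35932 to 1111804 UMIs, with a median of 731106 in fresh-frozen HCl, 629964 in fresh-frozen TE, 122520 in fixed frozen TE and 67528 in paraffin TE sections, and replicate 4 had the lowest total in 12 of 12 libraries. Levels are given as CPM, the UMIs of a gene divided by all UMIs of the replicate and multiplied by 1000000. Because the reads come from 3′ ends, levels are compared between groups for each gene and not between genes. Markers of the irradiated regions followed the labels across the 12 libraries in the pairs given here. Of these, 6 of 6 CA1 markers were higher in CA1 than in CA3, and 6 of 6 CA3 markers were higher in CA3 than in CA1. For DG, 8 of 8 markers were higher in DG than in CA1. A list of 6 CA2 markers, in which Pcp4 made up 78.5% of the summed mean, had its highest sum in DG in every condition. Markers of other cells were also present, and 8 of 8 oligodendrocyte markers were higher in CA1 than in DG and in CA3 than in DG. Choroid plexus markers summed to between 0 and 9145 CPM in single replicates.

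Nr3c1, the glucocorticoid receptor gene on chromosome 18, had its highest mean in CA1 in all 4 conditions. In fresh-frozen HCl sections its 4 CA1 replicates had 216, 261, 245 and 165 CPM, those of CA3 157, 164, 148 and 178 CPM, and those of DG 150, 113, 140 and 147 CPM. In fresh-frozen TE sections they had 189, 193, 177 and 221 CPM in CA1, 102, 130, 172 and 135 CPM in CA3, and 120, 138, 136 and 170 CPM in DG. Every CA1 replicate was above every DG replicate in both kinds of fresh-frozen section, and above every CA3 replicate in fresh-frozen TE. In fixed frozen TE sections the levels were 333, 299, 324 and 314 CPM in CA1, 143, 141, 86.1 and 114 CPM in CA3, and 194, 218, 264 and 211 CPM in DG. Here the 3 regions did not overlap, with CA1 highest and CA3 lowest. In paraffin TE sections CA1 had 171, 414, 254 and 223 CPM, CA3 132, 101, 62.7 and 226 CPM, and DG 122, 151, 179 and 187 CPM, from 3 to 40 UMIs a replicate, and the regions overlapped.

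Differences between regions were tested on every gene of the table with at least 10 UMIs, by the quasi-likelihood test of edgeR with Benjamini-Hochberg adjustment, and those with an adjusted p under 0.05 are named called. Across the 12 libraries, with the condition as a covariate, Nr3c1 in CA1 exceeded DG by 0.59 ± 0.17 (log2 fold change ± SE, adjusted p = 0.0092) and CA3 by 0.77 ± 0.17 (adjusted p = 0.00055). In the same test CA3 over DG was -0.17 ± 0.17 for Nr3c1 (adjusted p = 0.71), so these neighbours in the order did not differ beyond their spread. In bulk samples such as these, fewer cells of a type and less RNA per cell cannot be told apart. The CA1 over DG call was lost without the fresh-frozen HCl libraries (0.53, adjusted p = 0.0888), without the fresh-frozen TE libraries (0.62, adjusted p = 0.0587) and without replicate 2 of every library (0.48, adjusted p = 0.0556). The CA1 over CA3 call held in each of these and in all other alternatives, with adjusted p from 1.24e-06 to 0.0286.

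Nr3c1 was 1 of 8 genes called in CA1 over DG, where 10.2% of all genes were called, and 1 of 2 called in CA1 over CA3, where 4.67% were called. None of the 8 was called in CA3 over DG, where 8.18% were called. In that comparison 1 of the 8 had an unadjusted p under 0.05, and DESeq2 called 0. With 8 genes, 1 call stands near the share over all genes. The 8 oligodendrocyte markers, which were higher in CA1 than in DG, had a median of 1.59 in that comparison and of 0.44 in CA1 over CA3, and their part in the Nr3c1 values was not tested. The comparisons share regions and are not independent of each other.

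Within conditions the same direction was seen for Nr3c1. CA1 over DG was between 0.43 and 0.75 and CA1 over CA3 between 0.45 and 1.34 in the 4 conditions. The edgeR test called CA1 over DG in fresh-frozen HCl sections (0.75 ± 0.19, adjusted p = 0.0034) and CA1 over CA3 in fixed frozen TE sections (1.34 ± 0.28, adjusted p = 9.1e-05). CA1 over CA3 of fresh-frozen HCl was 0.45 ± 0.16 (adjusted p = 0.077), and it was called with filterByExpr (0.52, adjusted p = 0.0227) and without CA1 replicate 4 (0.52, adjusted p = 0.0354). In fixed frozen TE sections CA3 was also lower than DG (-0.88 ± 0.27, adjusted p = 0.015), a call that was lost with DESeq2 (adjusted p = 0.0672), without CA3 replicate 3 (adjusted p = 0.1) or without DG replicate 3 (adjusted p = 0.0973). For fresh-frozen TE, CA1 over DG was 0.51 ± 0.17 (adjusted p = 0.052) and CA1 over CA3 0.51 ± 0.17 (adjusted p = 0.1). Replicates with the same number deviated together there, and with the replicate number as a block both were called, at 0.51 ± 0.13 (adjusted p = 0.002) and 0.52 ± 0.14 (adjusted p = 0.006). A test of whether the region effect differed from that in fresh-frozen TE called Nr3c1 in no condition.

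The genes whose pattern was most like that of Nr3c1 over the 12 libraries, by Pearson correlation of log2(CPM + 1) centred within conditions among 11770 genes with at least 100 UMIs, were Gm19445 (r = 0.977), Adgrl2 (r = 0.964) and Pik3r1 (r = 0.962). Adgrl2 encodes an adhesion G protein-coupled receptor of synapses and Pik3r1 a regulatory subunit of PI3 kinase. These 12 points share libraries and depth, and the values are a description.

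**Figure D1:**
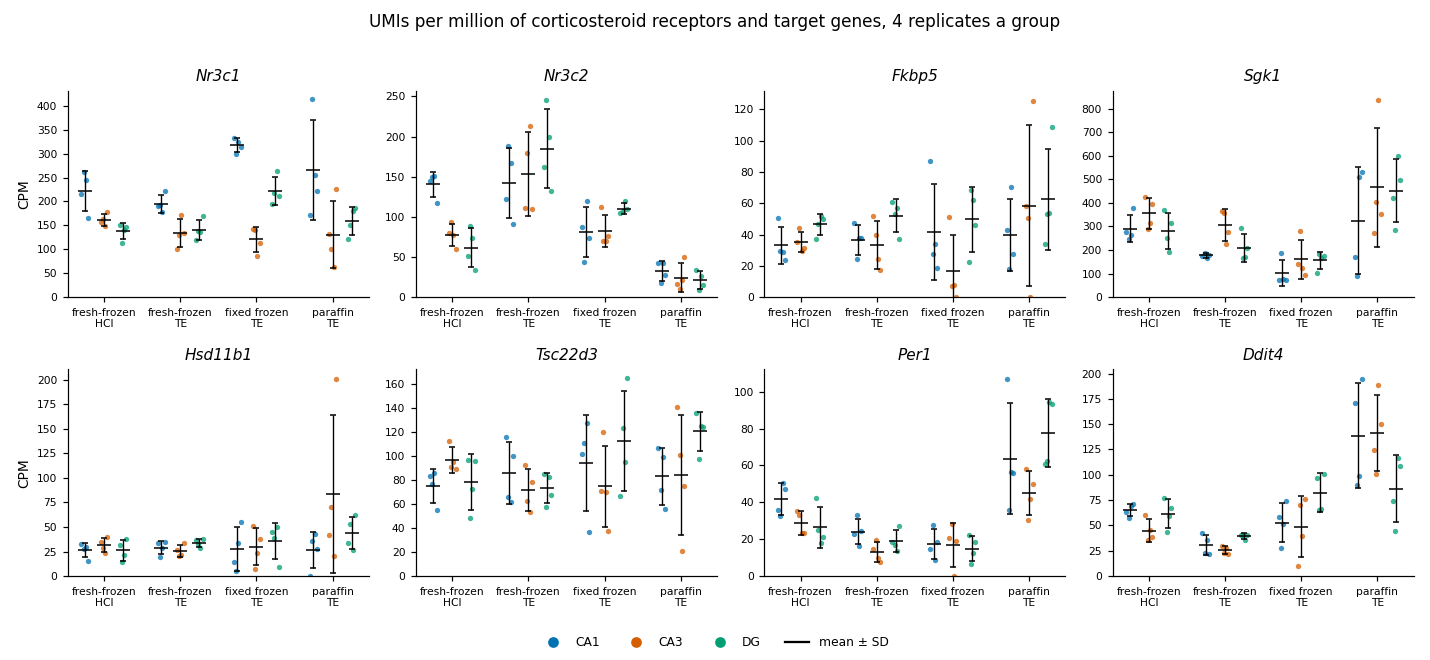
Level of each of the 8 genes in CPM (vertical axes, each from 0) in 4 conditions and 3 regions (colours). Points are the 4 replicates of a group, black marks their mean ± SD with bars cut off at 0. Nr3c1 had its highest mean in CA1 in every condition, and Nr3c2 was lowest in paraffin TE sections (8.89 to 50.1 CPM). The highest single replicates of Nr3c1, Fkbp5, Sgk1, Hsd11b1, Per1 and Ddit4 were also in paraffin TE sections.

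Nr3c2, the mineralocorticoid receptor gene, lies at chr8:76899442-77245012 on the plus strand (GRCm38), and Gm10649, with 169 UMIs in the table, overlaps it. Its order of regions was not the same in all conditions. In fresh-frozen HCl sections it had 145, 149, 151 and 118 CPM in CA1, 80.4, 93.2, 77.8 and 60.2 CPM in CA3, and 51.1, 88.4, 73.6 and 33.5 CPM in DG. In those treated with TE it had 122, 188, 167 and 91.7 CPM in CA1, 111, 180, 213 and 109 CPM in CA3, and 163, 245, 200 and 132 CPM in DG. CA1 stood above both other regions with no overlap in HCl-permeabilized sections, while in TE-permeabilized sections of fresh-frozen tissue the 3 regions overlapped and DG had the highest mean.

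With edgeR, Nr3c2 was higher in CA1 than in DG (1.11 ± 0.22, adjusted p = 0.00026) and than in CA3 (0.83 ± 0.18, adjusted p = 0.0028) in fresh-frozen HCl sections. After TE these were -0.35 ± 0.19 (adjusted p = 0.31) and -0.11 ± 0.21 (adjusted p = 0.89). The difference between the 2 permeabilizations was tested as an interaction. For CA1 over DG the effect was greater in HCl by 1.44 ± 0.31 (adjusted p = 0.0085), a call kept in all 6 other settings and with each of the 24 replicates left out, with adjusted p from 1.44e-06 to 0.0388. Of all genes 1.22% were called in this interaction. For CA1 over CA3 the interaction was 0.92 ± 0.30 (adjusted p = 0.18). With the replicate number as a block it was 0.86 ± 0.22 (adjusted p = 0.0091). Without the block, CA1 over DG was the single call among the 8 members over the 9 interactions of a region pair with a condition, in which 0.484% of the gene tests were called.

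In fixed frozen TE sections Nr3c2 had 86.9, 44.2, 119 and 73.8 CPM in CA1, 112, 70.6, 70.5 and 75.8 CPM in CA3, and 104, 107, 120 and 110 CPM in DG. In paraffin TE sections it had 42.7, 18, 42.4 and 27.8 CPM in CA1, 16.5, 10.1, 20.9 and 50.1 CPM in CA3, and 33.9, 8.89, 26.9 and 15.6 CPM in DG. The paraffin values rest on 1 to 6 UMIs a replicate, and the region differences there had SEs of 0.78 to 0.94 on the log2 scale. Across the 12 libraries no region pair was called for Nr3c2, with CA1 over DG at 0.13 ± 0.20 (adjusted p = 0.80) and CA1 over CA3 at 0.30 ± 0.20 (adjusted p = 0.61). The genes most like Nr3c2 over the 12 libraries were Gm28268 (r = 0.952), Kbtbd2 (r = 0.948) and Tceal1 (r = 0.940).

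The balance of the 2 receptors was measured inside each replicate as the share of Nr3c2 in the UMIs of both receptor genes. The share depends on how well each 3′ end is captured, so it is compared between groups only. In fresh-frozen HCl sections its mean ± SD (n = 4) was 39.1% ± 2.3 in CA1, 32.5% ± 4.9 in CA3 and 30.6% ± 11 in DG. In fresh-frozen TE sections it was 41.6% ± 9.4 in CA1, 52.6% ± 5.8 in CA3 and 56.2% ± 8.7 in DG. In fixed frozen TE sections it was 19.9% ± 5.8 in CA1, 40.6% ± 5.3 in CA3 and 33.4% ± 1.7 in DG. In paraffin TE sections it was 12.4% ± 6.6, 15.8% ± 7.2 and 12% ± 7.2 in the same order, and 2 paraffin replicates had fewer than 10 UMIs of both receptors together.

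Regions were compared over all conditions with a two-sided permutation test within conditions (16 replicates a region). CA1 minus CA3 was -7.14 points (permutation p = 0.018, adjusted over 3 pairs p = 0.053), CA1 minus DG -4.80 points (adjusted p = 0.19) and CA3 minus DG 2.34 points (adjusted p = 0.35). Neither these nor any of 12 comparisons within a condition passed the threshold. An exact permutation test of 4 against 4 replicates cannot go below p = 0.0286, and it reached this value for CA1 minus CA3 in fresh-frozen HCl (6.60 points) and for CA1 minus CA3 and CA1 minus DG in fixed frozen TE sections (-20.7 and -13.5 points). Adjusted over the 12 comparisons, each of these exact tests had p = 0.11. In fresh-frozen TE same-numbered replicates deviated together, but the sources do not say that they came from the same mouse. With replicates paired by number there, the share was lower in CA1 in 4 of 4 pairs against DG (-18.4, -14.6, -10.9 and -14.5 points). Against CA3 it was lower in CA1 in 4 of 4 pairs as well (-13.0, -8.73, -6.80 and -15.5 points). The exact paired permutation test gave p = 0.125 for each, the smallest value that 4 pairs allow. This paired test was added after the values were seen. The sign for CA1 minus DG was positive in fresh-frozen HCl (8.49 points) and negative in fresh-frozen TE (-14.6 points). Without the fresh-frozen HCl sections CA1 minus DG was -9.23 points (permutation test, adjusted p = 0.012) and CA1 minus CA3 -11.7 points (adjusted p = 0.0051). These were the lowest values among 7 alternative settings, in which the highest were -1.53 points for CA1 minus DG and -2.62 points for CA1 minus CA3.

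Between conditions the mean share over regions differed at every step, and at each step the means of all 3 regions moved in the same direction. From fresh-frozen HCl to TE the CA1 mean moved within its spread, from 39.1% ± 2.3 to 41.6% ± 9.4. CA3 went from 32.5% to 52.6% and DG from 30.6% to 56.2%. The comparison between conditions was chosen after the values were seen. The mean over regions was 34.0% in fresh-frozen HCl, 50.1% in fresh-frozen TE, 31.3% in fixed frozen TE and 13.4% in paraffin TE sections. In a two-sided permutation test within regions (12 replicates against 12) the differences were 16.1 points (adjusted over 3 steps p = 0.00055), -18.9 points (adjusted p = 0.000105) and -17.9 points (adjusted p = 0.000105). Replicates pooled in a library were counted as separate samples in this test.

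**Figure D2:**
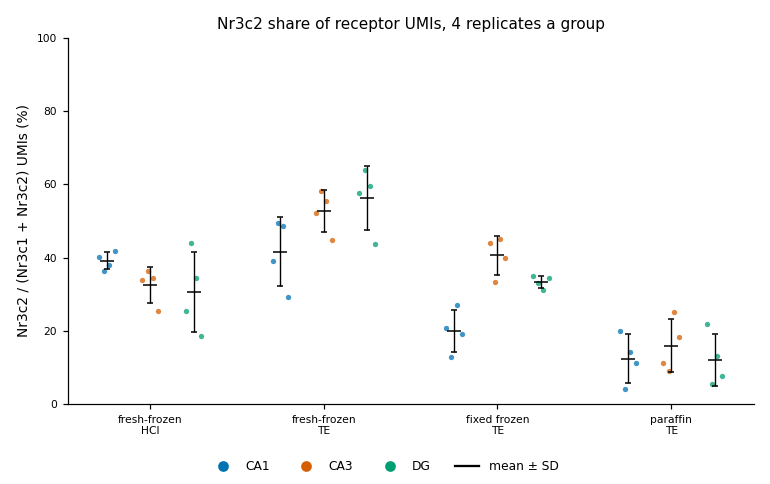
Share of Nr3c2 in the UMIs of Nr3c1 and Nr3c2 (%, vertical axis from 0 to 100) for the 4 replicates of each region (colours) and condition, with mean ± SD in black. The share was highest in fresh-frozen TE sections and lowest in paraffin TE sections, where single replicates lay between 4.17% and 25.0%.

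Nr3c2 itself differed between conditions in the edgeR test with region as a covariate (24 replicates a comparison). In this and the other tests between conditions, the replicates pooled in a library were counted as separate samples. Nr3c2 was higher in fresh-frozen TE than in fresh-frozen HCl by 0.94 ± 0.15 (adjusted p = 1.9e-06). This is an average over regions that did not move alike. From HCl to TE the group mean went from 141 to 142 CPM in CA1. In CA3 it went from 77.9 to 153 CPM, and in DG from 61.7 to 185 CPM. Nr3c2 was lower in fixed frozen TE than in fresh-frozen TE (-0.89 ± 0.16, adjusted p = 2.4e-06), and lower again in paraffin TE than in fixed frozen TE (-2.0 ± 0.31, adjusted p = 1.2e-08). Over all regions the lowest, median and highest replicate had 33.5, 84.4 and 151 CPM in fresh-frozen HCl, 91.7, 165 and 245 CPM in fresh-frozen TE, 44.2, 95.6 and 120 CPM in fixed frozen TE, and 8.89, 23.9 and 50.1 CPM in paraffin TE. Paraffin and fresh-frozen TE replicates did not overlap.

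Nr3c1 moved less. Its log2 fold change was -0.02 ± 0.10 in fresh-frozen TE over HCl (adjusted p = 0.91), 0.41 ± 0.13 in fixed frozen TE over fresh-frozen TE (adjusted p = 0.0069) and -0.40 ± 0.18 in paraffin TE over fixed frozen TE (adjusted p = 0.083). The call in fixed frozen TE was lost without DG fixed frozen TE replicate 3 (0.31, adjusted p = 0.0509). The last value was called without CA1 paraffin TE replicate 2 (-0.49, adjusted p = 0.0368).

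These condition effects stand against a large background. The share of UMIs from mitochondrially encoded genes differed as well, with medians of 2.89% in fresh-frozen HCl, 3.56% in fresh-frozen TE, 7.44% in fixed frozen TE and 8.53% in paraffin TE sections. With those genes left out, the counts of members called were the same in each of the 3 condition comparisons. Of all genes 30.6% were called between fresh-frozen TE and HCl, 48.7% between fixed frozen TE and fresh-frozen TE, and 28% between paraffin TE and fixed frozen TE, and 3, 4 and 4 of the 8 genes were called. The median log2 fold change over all genes tested was -0.10, -0.39 and 0.05 in these comparisons, against -0.01, -0.11 and 0.38 over the 8 genes. With DESeq2 size factors the median over all genes in paraffin TE over fixed frozen TE became 0.22 and the share of higher genes among those called went from 48.7% to 65.7%. No called member turned its direction under any scaling. Neighbouring comparisons share a condition and are not independent.

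Sgk1, which encodes a kinase that corticosteroids induce and that acts on ion channels and transporters, lies at chr10:21882184-21999903 on the plus strand (GRCm38). RefSeq promoters (windows from before to just after each start, GRCm38.p6) were searched for the palindromic receptor element, AGAACA and TGTTCT with any 3 bases between them, whose fixed letters read the same on both strands. It was found in 3 of 32851 promoters (0.009%), and 1 of these was an Sgk1 promoter, from 189 to 175 bases before that start. Of the 8 genes, 7 had a promoter in the table (15 promoters, 6 of them of Sgk1). A looser form that lies within the first, GNACA and TGTNC with any 3 bases between them, was in 156 promoters (0.475%) and among the members in the same Sgk1 promoter only. No match says only that these letters are not in this window. The Sgk1 element is shown because it is the one full match among the members, with the element in capitals, at chr10:21993694-21993723 on the plus strand.
Sgk1: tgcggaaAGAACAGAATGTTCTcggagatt

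Sgk1 had its highest mean in CA3 in all 4 conditions. In paraffin TE sections this order depends on the mean over replicates: with the UMIs of the 4 replicates pooled, CA3 had 413 CPM and DG 475 CPM. In fresh-frozen TE sections it had 173, 188, 167 and 178 CPM in CA1, 366, 358, 224 and 277 CPM in CA3, and 293, 167, 171 and 207 CPM in DG. In fresh-frozen HCl sections it had 275, 246, 266 and 377 CPM in CA1, 423, 288, 315 and 397 CPM in CA3, and 369, 251, 190 and 314 CPM in DG. Every CA3 replicate was above every CA1 replicate in fresh-frozen TE, and the regions overlapped in fresh-frozen HCl. Fixed frozen TE sections had 72.4, 188, 76.7 and 73.8 CPM in CA1, 143, 282, 125 and 94.7 CPM in CA3, and 104, 182, 165 and 174 CPM in DG. Paraffin TE sections had 171, 90.0, 509 and 529 CPM in CA1, 273, 403, 837 and 351 CPM in CA3, and 420, 285, 601 and 498 CPM in DG. The regions overlapped in both, and the spread within a region was widest in paraffin TE sections.

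Across the 12 libraries Sgk1 was lower in CA1 than in CA3 (-0.55 ± 0.17, adjusted p = 0.035). The call was lost without the fresh-frozen TE libraries (-0.45, adjusted p = 0.416), without the fresh-frozen HCl libraries (-0.63, adjusted p = 0.0513), without the fixed frozen TE libraries (-0.55, adjusted p = 0.0646), without replicate 1 (-0.51, adjusted p = 0.0941), without replicate 2 (-0.51, adjusted p = 0.0732) and with no filter on low counts (-0.57, adjusted p = 0.0515). Within fresh-frozen TE sections CA1 over CA3 was -0.80 ± 0.17 (adjusted p = 0.003) and was called in every alternative. CA3 over DG was 0.60 ± 0.19 there (adjusted p = 0.043), and this call was lost with DESeq2, with its size factors, with filterByExpr and without any 1 of 6 of the 8 replicates, namely CA3 replicates 1, 2 and 4 and DG replicates 2, 3 and 4 (adjusted p up to 0.2). In fresh-frozen HCl CA3 over DG was 0.40 ± 0.18 (adjusted p = 0.20) and, with the replicate number as a block, 0.39 ± 0.11 (adjusted p = 0.0054). CA1 and DG, the neighbours below CA3, were not called apart for Sgk1 across the libraries (-0.28 ± 0.17, adjusted p = 0.37).

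Between conditions Sgk1 was lower in fixed frozen TE than in fresh-frozen TE (-0.64 ± 0.15, adjusted p = 0.00016) and higher in paraffin TE than in fixed frozen TE (1.32 ± 0.17, adjusted p = 6.4e-12). Fresh-frozen TE over HCl was -0.27 ± 0.11 (adjusted p = 0.059) and -0.27 ± 0.09 with the replicate number as a block (adjusted p = 0.016), and it was also called with DESeq2, with DESeq2 size factors and with filterByExpr (adjusted p from 0.0244 to 0.0325). The lowest, median and highest replicates were 190, 301 and 423 CPM in fresh-frozen HCl, 167, 198 and 366 CPM in fresh-frozen TE, 72.4, 134 and 282 CPM in fixed frozen TE, and 90.0, 412 and 837 CPM in paraffin TE. Oligodendrocytes also express Sgk1, and their markers also differed at these steps. Of 8 oligodendrocyte markers, 5 were lower and 1 higher in fixed frozen TE than in fresh-frozen TE (median -0.58), and 8 were higher in paraffin TE than in fixed frozen TE (median 1.37). Of all genes 48.7% and 28% were called in these comparisons. From fresh-frozen TE to fixed frozen TE the mean summed level of the markers rose in CA1, from 8647 to 12228.5 CPM. It fell from 7864 to 5562 CPM in CA3 and from 3301 to 2637 CPM in DG. From fixed frozen TE to paraffin TE the summed level rose in each region. It went from between 9256 and 19168 to between 15157 and 25506 CPM in CA1. In CA3 it went from between 3769 and 6889 to between 9373 and 21047 CPM. In DG it went from between 2177 and 3207 to between 6255 and 18656 CPM. None of the 8 markers was at 0 in any group. Across the 12 libraries 1 of the 8 was called between CA1 and CA3, higher in CA1, with a median over the 8 of 0.44. Of all genes 4.67% were called in that pair. The part of these markers in the Sgk1 values was not tested.

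**Figure D3:**
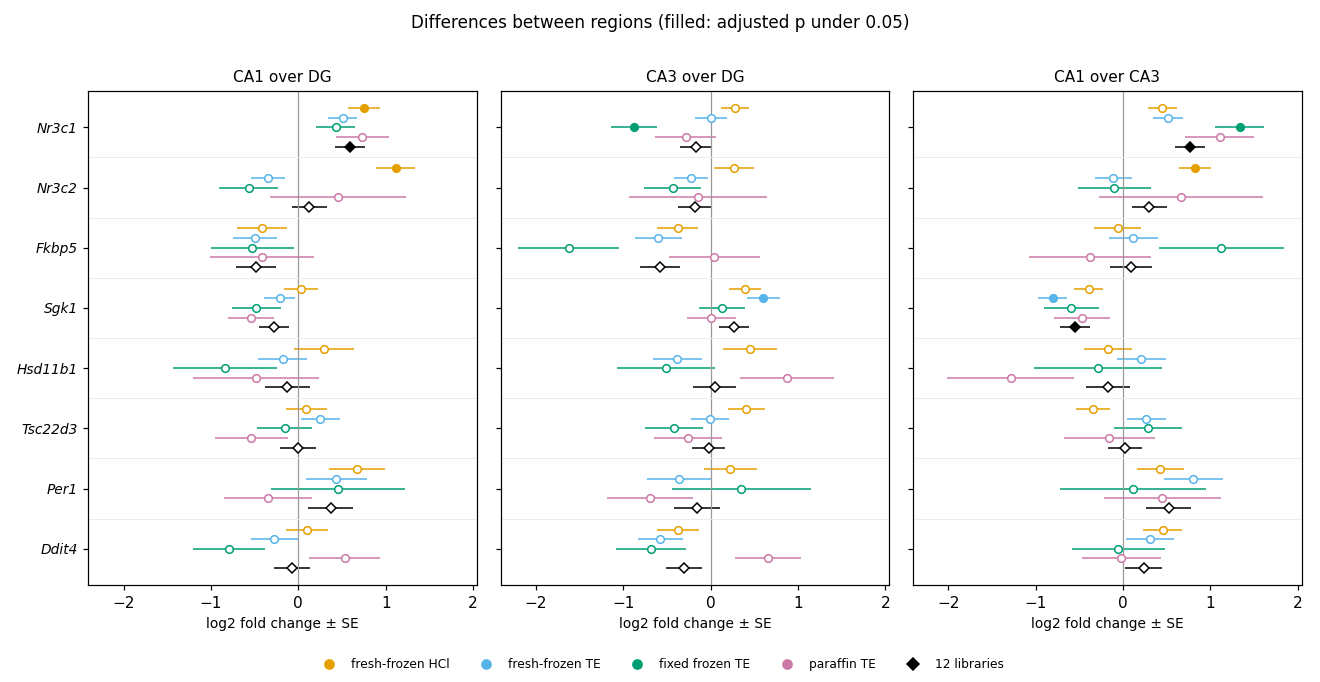
Log2 fold change between regions (horizontal axes, ± SE) for the 8 genes in each condition (circles) and across the 12 libraries (diamonds), with filled symbols at an adjusted p under 0.05. Nr3c1 lies to the right in CA1 over DG and CA1 over CA3 in every condition, Sgk1 to the left in CA1 over CA3, and Nr3c2 is called in CA1 comparisons of fresh-frozen HCl sections alone.

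Per1, a gene of the circadian clock that glucocorticoids also induce, lies at chr11:69095217-69109960 on the plus strand, and Ddit4, which encodes an inhibitor of mTORC1 signalling, at chr10:59949669-59951834 on the minus strand. No region pair was called for either gene in any condition or across the libraries. Per1 was higher in CA1 than in CA3 in the estimate of all 4 conditions (0.12 to 0.81), with 0.52 ± 0.26 across the libraries (adjusted p = 0.37). Ddit4 was at -0.07 ± 0.21 in CA1 over DG (adjusted p = 0.90) and -0.31 ± 0.21 in CA3 over DG (adjusted p = 0.50). Without DG fresh-frozen HCl replicate 1, Per1 was called in CA1 over DG of that condition (0.96, adjusted p = 0.0463, against 0.67 ± 0.32 and adjusted p = 0.15 with it).

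Both genes differed between conditions. Per1 had 17.8, 33.0 and 50.6 CPM as lowest, median and highest replicate in fresh-frozen HCl, 7.82, 17.7 and 33.1 CPM in fresh-frozen TE, 0, 18.4 and 28.2 CPM in fixed frozen TE, and 30.2, 57.2 and 107 CPM in paraffin TE. The 1 replicate at 0 allows up to 23.5 CPM at its depth (3 UMIs), and no paraffin replicate overlapped the fixed frozen ones. It was lower in fresh-frozen TE than in HCl (-0.67 ± 0.19, adjusted p = 0.0045), not called in fixed frozen TE over fresh-frozen TE (-0.28 ± 0.33, adjusted p = 0.51), and higher in paraffin TE than in fixed frozen TE (1.86 ± 0.37, adjusted p = 9.9e-06). With filterByExpr the 25 UMIs of Per1 in fixed frozen TE sections and 70 in paraffin TE sections were too few for it to be tested in that last comparison.

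Ddit4 had 35.3, 59.8 and 76.6 CPM as lowest, median and highest replicate in fresh-frozen HCl, 21.5, 32.3 and 42.5 CPM in fresh-frozen TE, 10.2, 65.6 and 101 CPM in fixed frozen TE, and 44.5, 113 and 195 CPM in paraffin TE. It was lower in fresh-frozen TE than in HCl (-0.68 ± 0.14, adjusted p = 0.00017), higher in fixed frozen TE than in fresh-frozen TE (0.79 ± 0.21, adjusted p = 0.0013), and higher again in paraffin TE (0.76 ± 0.25, adjusted p = 0.012). All 3 calls held in every alternative. Paraffin replicates all lay above fresh-frozen TE replicates.

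**Figure D4:**
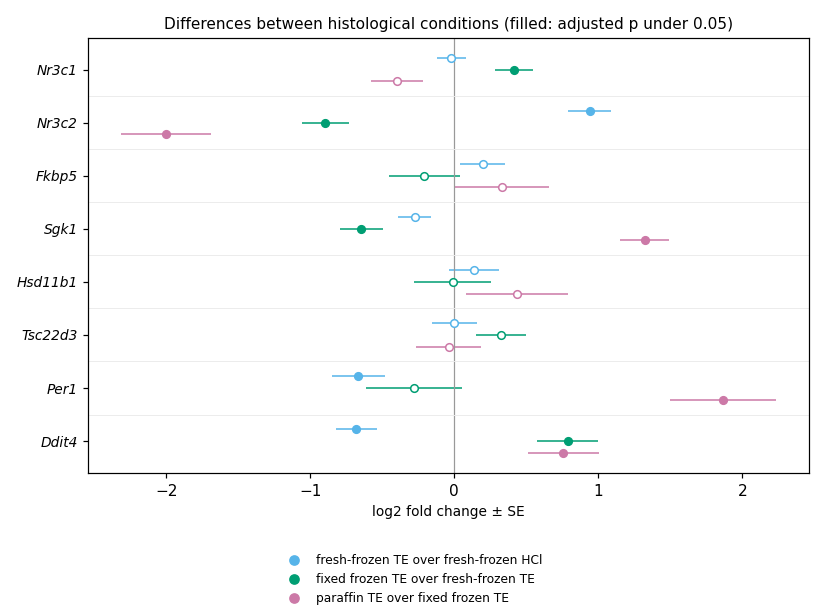
Log2 fold change between neighbouring histological conditions (horizontal axis, ± SE, 24 replicates a comparison with region as covariate) for the 8 genes, filled where the adjusted p was under 0.05. Nr3c2 falls from 0.94 through -0.89 to -2.0 over the 3 comparisons, while Per1 and Sgk1 are highest in paraffin TE over fixed frozen TE, at 1.86 and 1.32.

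Fkbp5 encodes a cochaperone of HSP90 that lowers the hormone affinity of the glucocorticoid receptor and is itself induced by it. It lies at chr17:28399094-28517527 on the minus strand, where 3 other gene models of the table overlap it, 1 of them (AC154912.3) with 183 UMIs. Its mean was highest in DG in all 4 conditions, at 46.4 ± 6.8, 52.1 ± 10.3, 49.6 ± 20.5 and 62.5 ± 32.3 CPM (SD, n = 4) in fresh-frozen HCl, fresh-frozen TE, fixed frozen TE and paraffin TE. In CA1 it was 33.1 ± 12, 36.7 ± 9.5, 41.8 ± 30.8 and 39.8 ± 22.9 CPM, and in CA3 35.1 ± 6.3, 33.4 ± 15.2, 16.5 ± 23.2 and 58.4 ± 51.5 CPM. The regions overlapped in all conditions. With the UMIs of the 4 replicates pooled, paraffin TE sections had 55.2 CPM in CA3 and 54.8 CPM in DG. CA3 over DG ran from -1.62 to 0.04 in the 4 conditions. A replicate each of CA3 in fixed frozen TE and in paraffin TE had 0 UMIs, which allows up to 56.8 and 62.7 CPM. CA1 over DG was below 0 in all 4 conditions (-0.53 to -0.41) and was -0.48 ± 0.23 across the libraries (adjusted p = 0.19), and CA3 over DG was -0.58 ± 0.23 (adjusted p = 0.10). The latter was called with all 48 columns in place of library sums (adjusted p = 0.0187), without the paraffin TE libraries (-0.68, adjusted p = 0.0437) and without replicate 1 (-0.79, adjusted p = 0.0219), as was CA1 over DG without replicate 1 (-0.80, adjusted p = 0.0229).

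For fresh-frozen TE, Fkbp5 was -0.60 ± 0.27 in CA3 over DG (adjusted p = 0.21) and -0.61 ± 0.22 with the replicate number as a block (adjusted p = 0.047). In fixed frozen TE sections the same pair was at -1.62 ± 0.58 (adjusted p = 0.051), from 7 UMIs in CA3 and 44 in DG. It was called there without CA3 replicate 1 (-2.99, adjusted p = 0.0044), without DG replicate 1 (-1.82, adjusted p = 0.0251) and with mitochondrially encoded genes left out (-1.64, adjusted p = 0.0482). No condition step was called for Fkbp5, with log2 fold changes of 0.20 ± 0.16, -0.21 ± 0.24 and 0.33 ± 0.32.

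Hsd11b1 encodes the enzyme that regenerates active glucocorticoid from its inert 11-keto form inside cells. It lies at chr1:193221634-193264075 on the minus strand and shares that interval with Gm38118 and Lamb3 (19 and 11 UMIs). It held 540 UMIs in all 48 replicates and stayed between 14.0 and 39.7 CPM in fresh-frozen sections, with group means of 25.5 to 33.7 CPM. No region pair and no condition step was called for it, and across the libraries the 3 pairs were within -0.17 and 0.05 (SE 0.25 each). In paraffin TE sections single replicates ran from 0 to 200.5 CPM on 0 to 8 UMIs, and the 1 replicate at 0 allows up to 64.0 CPM.

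Tsc22d3, which encodes the glucocorticoid-induced leucine zipper protein, lies at chrX:140539528-140600659 on the minus strand. Its group means lay between 71.9 and 121 CPM in all 12 groups, and its replicates between 20.9 and 165 CPM. Across the libraries the region pairs were at -0.00 ± 0.21, -0.02 ± 0.19 and 0.02 ± 0.19 (adjusted p of 0.98 or above), and the condition steps at 0.00 ± 0.16, 0.32 ± 0.17 and -0.04 ± 0.23. None of these was called, but the step from fresh-frozen TE to fixed frozen TE was called for Tsc22d3 with filterByExpr (0.47, adjusted p = 0.0141). In fresh-frozen HCl sections every CA3 replicate (88.9 to 113 CPM) was above every CA1 replicate (55.0 to 86.3 CPM), at CA1 over CA3 of -0.34 ± 0.19 (adjusted p = 0.30).

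Counted within conditions, 2 of the 8 genes were called in CA1 over DG, 0 in CA3 over DG and 1 in CA1 over CA3 of fresh-frozen HCl sections, where 17%, 8.99% and 9.13% of all genes were called. In fresh-frozen TE sections 0, 1 and 1 were called, against 10.1%, 7.91% and 4.4%. In fixed frozen TE sections 0, 1 and 1 were called, against 8.14%, 9.27% and 7.2%, and in paraffin TE sections 0 in each pair, against 3.29%, 3.21% and 2.36%. For the pairs with 0 calls by edgeR, 1 gene had an unadjusted p under 0.05 in CA3 over DG of fresh-frozen HCl, 1 in CA1 over DG of fresh-frozen TE, 0 in CA1 over DG of fixed frozen TE, and 2, 0 and 1 in the paraffin TE pairs. DESeq2 called none in any of these 6 pairs.

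Other genes of the pathway were counted in the same fit across the 12 libraries. There 10.2% of all genes were called in CA1 over DG, 8.18% in CA3 over DG and 4.67% in CA1 over CA3. Of 12 chaperones and cochaperones of the receptors, 1 was higher in CA1 than in DG, 2 were higher in CA3 than in DG and 1 was lower in CA1 than in CA3 (median log2 fold changes 0.27, 0.20 and -0.03, against 0.00, -0.01 and 0.02 over all genes tested). Hspa8, a constitutive HSP70, exceeded DG in CA1 by 1.44 ± 0.28 (adjusted p = 1.3e-05) and in CA3 by 1.27 ± 0.28 (adjusted p = 0.00022). Hsp90aa1, which encodes an HSP90 that holds the receptors, was higher in CA3 than in DG (0.82 ± 0.16, adjusted p = 2.5e-05) and lower in CA1 than in CA3 (-0.51 ± 0.16, adjusted p = 0.038). Hsp90ab1 and Dnajb1 were not called, at 0.43 ± 0.16 and 0.62 ± 0.23 in CA3 over DG (adjusted p = 0.082 and 0.085).

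In the fit across the 12 libraries 10.2% of all genes were called in CA1 over DG and 4.67% in CA1 over CA3. Of 12 coregulators, 11 were tested and 1, Nrip1, was called. This corepressor of nuclear receptors was higher in CA1 than in DG (0.60 ± 0.18, adjusted p = 0.011) and than in CA3 (0.95 ± 0.18, adjusted p = 1.1e-05), with medians over the list of 0.14, -0.04 and 0.04 in the 3 pairs. Pgr, the progesterone receptor, exceeded DG in CA1 by 0.99 ± 0.21 (adjusted p = 0.00011) and CA3 by 1.23 ± 0.21 (adjusted p = 7.3e-07). Pgr thus shared with Nr3c1 the direction and the call in both CA1 comparisons. The estimates of Nr3c2 were positive in both as well, but neither was called.

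Of 16 other glucocorticoid-induced genes, 2 were lower in CA1 than in DG, 5 were lower in CA3 than in DG and 1 was higher in CA1 than in CA3, with medians of -0.02, -0.24 and 0.18. Of all genes 10.2%, 8.18% and 4.67% were called in these pairs. Bcl6, a transcriptional repressor, was lower in CA3 than in DG (-1.64 ± 0.19, adjusted p = 6.5e-16), lower in CA1 than in DG (-0.54 ± 0.18, adjusted p = 0.03) and higher in CA1 than in CA3 (1.10 ± 0.19, adjusted p = 9.1e-07). Cebpd, a transcription factor, was lower in CA3 than in DG (-1.0 ± 0.25, adjusted p = 0.0014), and so were Mt1, a metallothionein (-0.63 ± 0.17, adjusted p = 0.0043), and Nfkbia, the inhibitor of NF-κB (-0.71 ± 0.20, adjusted p = 0.0086). All 5 called genes of this list were lower in CA3 than in DG, while Sgk1 stood at 0.27 ± 0.17 in that pair. Astrocytes also express Mt1, and 3 of 6 astrocyte markers were lower in CA3 than in DG. Their summed level in fresh-frozen HCl was 2261 to 2905 CPM in CA3 and 2963 to 3931 CPM in DG. In fresh-frozen TE it was 2402 to 2861 CPM in CA3 and 3416 to 5217 CPM in DG. The regions overlapped in fixed frozen TE (379 to 932 and 880 to 1286 CPM) and in paraffin TE (587 to 952 and 908 to 1556 CPM). The part of these markers in the values above was not tested.

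Of 10 immediate early genes, 4 were higher in CA1 than in DG and 4 higher in CA1 than in CA3 (medians 1.00 and 0.57), among them Egr1 (2.27 and 1.25) and Arc (1.18 and 0.66). Of all genes 10.2% were called in CA1 over DG and 4.67% in CA1 over CA3. Between conditions, 7 of 11 coregulators were lower and none higher in fixed frozen TE than in fresh-frozen TE (median -0.62, against -0.39 over all genes), and 7 of 12 chaperones were higher and none lower (median 0.67), where 48.7% of all genes were called in either direction. In paraffin TE over fixed frozen TE 5 of 12 chaperones were lower and 1 higher (median -0.53), where 28% of all genes were called.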

How the data were processed

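The deposited table holds UMI counts per gene for 48 replicates. The authors trimmed the reads, aligned them with HISAT2 2.1.0, assigned them with featureCounts 1.6.4 and counted each UMI once with UMI-tools 1.0.0 (versions from the submitters' processing notes). No strand setting is given in the sources used here, so the reads of overlapping genes cannot be told apart. The methods describe the 4 replicates of a group as biological but do not say which mouse gave which, so p-values measure the spread between these samples.

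Counts were fitted over all genes with edgeR 4.0.16 (R 4.3.3, TMM scaling, quasi-likelihood test, at least 10 UMIs summed over the fitted columns), within each condition, between neighbouring conditions with region as covariate, as an interaction with fresh-frozen TE as reference, and on 12 library sums with condition as covariate. The SE is the log2 fold change divided by the root of the F statistic. The Nr3c2 share was tested by permutation (scipy 1.17.1; 100000 permutations, or exact). Upper limits for a count of 0 use 3 UMIs and cover counting error only. DESeq2 1.42.0, its size factors, filterByExpr, no filter, mitochondrially encoded genes left out, a replicate block and omission of single replicates or conditions were tried. The fits were tested on simulated data.

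Same-numbered replicates were checked for shared deviations. In fresh-frozen TE the best match had the same number for 4 of 4 replicates in CA1 over DG and in CA3 over DG. In CA1 over CA3 of that condition it did so for 2 of 4. Every correlation was over 0.1 in 4 of 12 region comparisons (the 3 of fresh-frozen TE and CA3 over DG of fresh-frozen HCl) and in 2 of 9 comparisons of conditions within a region, over a range of 0.00104 to 0.433 and -0.041 to 0.369. The 8 genes are all members named in the text, and of each other list at most 4 genes could be named, those with the smallest p across the 12 libraries. The members and lists were chosen with earlier results of these data known. The counts for the list of steroid metabolism and other steroid receptors are not reported here.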

Additional observations from a re-analysis of the deposited data

Results flagged for a closer look

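Of 108 groups of 4 replicates examined for 1 replicate far from the other 3 by the ratio of its gap to the whole range (Dixon's test), 4 were picked out, and chance alone gives about 1 in 20. Nr3c2 in CA3 of fixed frozen TE sections had 112 CPM in replicate 1 and 70.5 to 75.8 CPM in the others. Fkbp5 in the same replicate had 50.9 CPM, from 5 UMIs, and 0 to 7.83 CPM in the others. Without that replicate Fkbp5 was called in CA3 over DG of fixed frozen TE (edgeR, -2.99, adjusted p = 0.0044). Sgk1 in CA1 of fixed frozen TE sections had 188 CPM in replicate 2 and 72.4 to 76.7 CPM in the others, and without it Sgk1 was called in CA1 over CA3 (edgeR, -1.22, adjusted p = 0.0467). Ddit4 in DG of fresh-frozen TE sections had 35.2 CPM in replicate 3 and 40.7 to 40.9 CPM in the others.

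The difference of Nr3c2 between CA1 and DG was greater in fresh-frozen HCl than in fresh-frozen TE sections by 1.44 on the log2 scale (edgeR interaction, adjusted p = 0.0085).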

How the results depend on the processing

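No called member turned its direction under any setting in which it was tested. Calls among the 8 genes over the 3 region pairs of a condition were 3 in fresh-frozen HCl, 2 in fresh-frozen TE, 2 in fixed frozen TE and 0 in paraffin TE. With the replicate block they were 5 in fresh-frozen HCl and 5 in fresh-frozen TE, and the interaction had 2 in place of 1. DESeq2 gave 1 in fresh-frozen TE and 1 in fixed frozen TE, DESeq2 size factors gave 1 in fresh-frozen TE, and filterByExpr gave 1 in fresh-frozen TE and 1 in paraffin TE. Across the 12 libraries there were 3 calls, 5 with all 48 columns and the replicate block, and 1 without the fresh-frozen HCl or without the fresh-frozen TE sections. Without single replicates the calls ranged from 3 to 5 in fresh-frozen HCl, 1 to 3 in fresh-frozen TE, 1 to 3 in fixed frozen TE and 1 to 4 across the libraries. The block changed the calls of Nr3c1, Sgk1, Fkbp5 and Nr3c2 given with the results, and beyond those Nr3c1 in CA1 over CA3 of fresh-frozen HCl (0.45, edgeR adjusted p = 0.0314), where the numbers are not taken to pair the samples, and Fkbp5 in CA1 over DG with all 48 columns (-0.53, adjusted p = 0.0246). The Nr3c2 share without the fresh-frozen HCl sections was -9.23 points in CA1 minus DG and -11.7 points in CA1 minus CA3. Among 7 alternative settings these were the lowest values, and the highest were -1.53 and -2.62 points. Between conditions, with replicates under 10 receptor UMIs left out, paraffin TE minus fixed frozen TE was -18.7 points. DESeq2 moved the all-gene median of fixed frozen TE over fresh-frozen TE from -0.39 to -0.19. In paraffin TE, Nr3c2 rests on 1 to 6 UMIs a replicate. The cause of these changes was not tested.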
